A study of Mus musculus with 23 samples.

Results

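The 2 MEER tumour lines, grown in culture, were compared with each other: 3 libraries of HPV-positive cells and 3 of HPV-negative cells, taken by their labels, out of 23 libraries in the series. The cells are of the C57/Bl6 strain per the labels. As background, MEER is known as a model made of mouse oropharyngeal epithelial cells with an activated Ras, and its HPV-positive form carries oncogenes of human papillomavirus. How the HPV-negative form was made is not given in the labels, and viral transcripts were not analysed here. The 3 libraries of SCCVII, an HPV-negative squamous carcinoma line from C3H/HeJ mice, shared the fit and are given where they help to place a level. The labels call the 3 samples of a line both aliquots and biological replicate preparations, and do not say that they were separate cultures, so a p-value here reflects the spread among aliquots, which may be technical. Each HPV status is a single line: viral status and every other difference between the lines cannot be told apart.

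Papillomaviruses of the high-risk kind transform epithelial cells with a pair of proteins, E6 and E7. E7 binds the retinoblastoma protein and its relatives, which frees the E2F factors that switch on genes of DNA replication. E6 directs the tumour suppressor p53 to destruction, and head and neck cancers with the virus are known for wild-type p53 and for high levels of p16, the product of the Cdkn2a locus.

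Libraries held 28002705 to 36024739 expected counts in the HPV-positive line, 27944725 to 36324706 in the HPV-negative line and 27596445 to 34938060 in SCCVII. Levels are CPM, counts scaled to the TMM-adjusted size of each library, and values are listed in the order of libraries 1, 2 and 3 of a line. A gene is called when the edgeR quasi-likelihood test gives a Benjamini-Hochberg adjusted p under 0.05. Of 14396 genes tested, 6773 were called, which is 47.0% of them, with 3338 higher in HPV-positive cells (23.2%) and 3435 lower (23.9%). Beyond a change of 1.5-fold 3080 were called (21.4%), and the CPM ranges of the lines did not overlap for 7232 genes (50.2%). The counts for each gene group below are read against these shares. The median log2 change over all tested genes was -0.01.

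The aliquots of both MEER lines were less alike than those of SCCVII. The median SD of log2 CPM between libraries was 0.19 in HPV-positive cells and 0.20 in HPV-negative cells, and 0.057 in SCCVII. The tests and standard errors draw on the spread of all 9 line libraries, those of SCCVII included. With the 6 MEER libraries alone in the fit, 5283 of 13661 tested genes were called (38.7%). HPV-negative library 1 stood above the other HPV-negative libraries in cell cycle genes, and HPV-positive library 1 stood below the other HPV-positive libraries in interferon genes and above them in cholesterol genes. Some of the results that touch these libraries are given with and without them.

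Marker genes were summed as TPM, a unit of relative transcript number that takes gene length into account. The 12 epithelial markers summed to 2113 to 3071 TPM in HPV-positive cells, to 464 to 804 TPM in HPV-negative cells and to 1198 to 1352 TPM in SCCVII. Krt8, Krt18 and Krt19 made up most of the sum in both MEER lines, and Krt8 and Krt18 in SCCVII. Markers averaging 1 TPM or more numbered 10 in HPV-positive cells, 6 in HPV-negative cells and 2 in SCCVII. In SCCVII Epcam, Krt5, Krt14 and Dsp had 0 counts. The defining basal keratin Krt5 had 0 counts in HPV-positive cells and 4 counts in HPV-negative cells, so it marked neither line. The 12 leucocyte markers summed to 41.2 to 57.9 TPM in HPV-positive cells and to 24.7 to 27.8 TPM in HPV-negative cells. Macrophages sorted from tumours of these lines summed to 15979 to 17206 TPM for HPV-positive tumours and to 25126 to 28624 TPM for HPV-negative tumours. In both MEER lines Cd68, Cd14 and Lyz2 made up most of the leucocyte sum. Mean TPM in HPV-positive and HPV-negative cells was 22.2 and 5.18 for Cd68, 23.6 and 13.2 for Cd14, and 3.06 and 6.33 for Lyz2. The other leucocyte markers averaged under 1 TPM in both lines, Ptprc among them at 0.0567 and 0.0367 TPM. In bulk samples, fewer cells of a type and less RNA per cell cannot be told apart.

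DNA replication genes were mostly higher in HPV-positive cells. Of 32 listed genes of E2F control and DNA replication, all of them tested, 28 were higher, 1 was lower and 3 were not called, with a median log2 change of 1.10. Promoters of the list are shown first, because E2F factors are known to bind them through an 8-base element. The element was searched on both strands as TTTCGCGC, TTTGGCGC, TTTCCCGC and TTTGCCGC in the RefSeq promoter windows of build GRCm38.p6. These windows run from 250 bases before to 50 bases after a gene's start in RefSeq. The opposite strand was read as the reverse complement, and none of these spellings can coincide with another at the same place on a strand.

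At least 1 such octamer lay in the windows of 13 of the 27 list genes that matched RefSeq (48.1%) and in 744 of all 32851 windows (2.26%). The 2 shares differ in unit: a list gene counted if any of its windows held an octamer, and some genes have several windows. Mcm6, with 3 octamers of which a pair on opposite strands overlaps, and Ezh2, with 1, are printed as 2 members whose windows hold the element, and Stag3, a meiotic gene described further on, as one whose window holds none of these spellings. These 3 do not stand for their lists. The window of the replication gene Mcm2 held no octamer, and a window of Syce2, another meiotic gene described further on, held TTTCCCGC on the opposite strand. Capitals mark the octamers, and all 3 windows are given 5′ to 3′ on the strand of the gene. A match is a run of letters and not a measured binding site. The Stag3 window begins downstream of the gene start given further on, so the bases before that start were not searched. The windows are chr1:128359656-128359955 on the minus strand for Mcm6, chr6:47594981-47595280 on the minus strand for Ezh2 and chr5:138280259-138280558 on the plus strand for Stag3.
Mcm6: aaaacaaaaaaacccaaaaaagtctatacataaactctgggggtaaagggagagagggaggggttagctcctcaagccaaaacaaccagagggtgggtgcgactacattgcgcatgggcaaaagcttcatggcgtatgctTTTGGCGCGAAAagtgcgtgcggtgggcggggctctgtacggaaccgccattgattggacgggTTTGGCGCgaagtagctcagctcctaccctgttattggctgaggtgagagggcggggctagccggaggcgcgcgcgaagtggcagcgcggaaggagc
Ezh2: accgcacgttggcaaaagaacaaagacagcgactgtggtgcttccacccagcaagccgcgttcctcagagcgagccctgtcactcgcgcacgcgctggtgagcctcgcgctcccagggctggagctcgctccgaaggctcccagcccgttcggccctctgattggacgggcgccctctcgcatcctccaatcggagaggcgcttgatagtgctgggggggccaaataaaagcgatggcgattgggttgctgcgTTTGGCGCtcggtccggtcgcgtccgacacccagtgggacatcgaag
Stag3: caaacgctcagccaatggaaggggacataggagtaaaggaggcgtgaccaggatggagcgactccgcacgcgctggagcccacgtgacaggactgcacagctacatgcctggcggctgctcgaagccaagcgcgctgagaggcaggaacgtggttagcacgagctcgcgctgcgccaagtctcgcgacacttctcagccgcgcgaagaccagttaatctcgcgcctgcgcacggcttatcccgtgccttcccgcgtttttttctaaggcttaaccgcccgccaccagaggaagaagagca

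Mcm2, a subunit of the helicase that opens DNA for replication, stood at 513, 509 and 484 CPM in the HPV-positive libraries, against 232, 220.2 and 241 CPM in the HPV-negative libraries (log2 change 1.12 ± 0.08, adjusted p = 4.0e-06). Every HPV-positive library lay at more than 2 times the level of any HPV-negative one. Mcm6, another subunit of that helicase, stood at 402, 429 and 491 CPM in the HPV-positive libraries, against 210.3, 163 and 166 CPM in the HPV-negative libraries (log2 1.29 ± 0.12), and again the lines did not overlap. Ezh2, the methyltransferase that marks histone H3 on lysine 27, stood at 143, 149.5 and 164 CPM in the HPV-positive libraries, against 59.7, 48.7 and 47.0 CPM in the HPV-negative libraries (log2 1.56 ± 0.11, adjusted p = 2.5e-06). Its 3 aliquots were close together within each line, so the gap between the lines was far wider than the spread within them. The largest log2 changes of the list were those of Pold1, the catalytic subunit of DNA polymerase delta (1.77 ± 0.23), and of Lig1, the ligase that joins lagging-strand fragments (1.69 ± 0.20).

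Some genes of the list did not follow. Tyms, which makes thymidylate, was the one lower gene, at 83.9, 73.2 and 71.2 CPM in the HPV-positive libraries, against 177, 103 and 99.4 CPM in the HPV-negative libraries (log2 -0.73 ± 0.20, adjusted p = 0.011). Its highest HPV-negative value was that of library 1. Under the alternative fits its log2 change ran between -0.87 and -0.41, and it stayed called. Rrm1, the large subunit of ribonucleotide reductase, had a log2 change of 0.33 ± 0.23 (adjusted p = 0.27), and Fen1, the flap endonuclease, one of 0.32 ± 0.19 (adjusted p = 0.2). Both overlapped between the lines, and without HPV-negative library 1, Rrm1 (log2 0.66) and Fen1 (0.60) were called higher. The level of the list in a library, taken as the median over its genes of log2 CPM relative to each gene's mean in the 6 MEER libraries, was 0.61, 0.47 and 0.62 in HPV-positive cells, against -0.12, -0.71 and -0.77 in HPV-negative cells. The first HPV-negative library thus lay between the others of its line and the HPV-positive ones. Without that library 30 genes of the list were higher and 1 was lower.

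**Figure D1:**
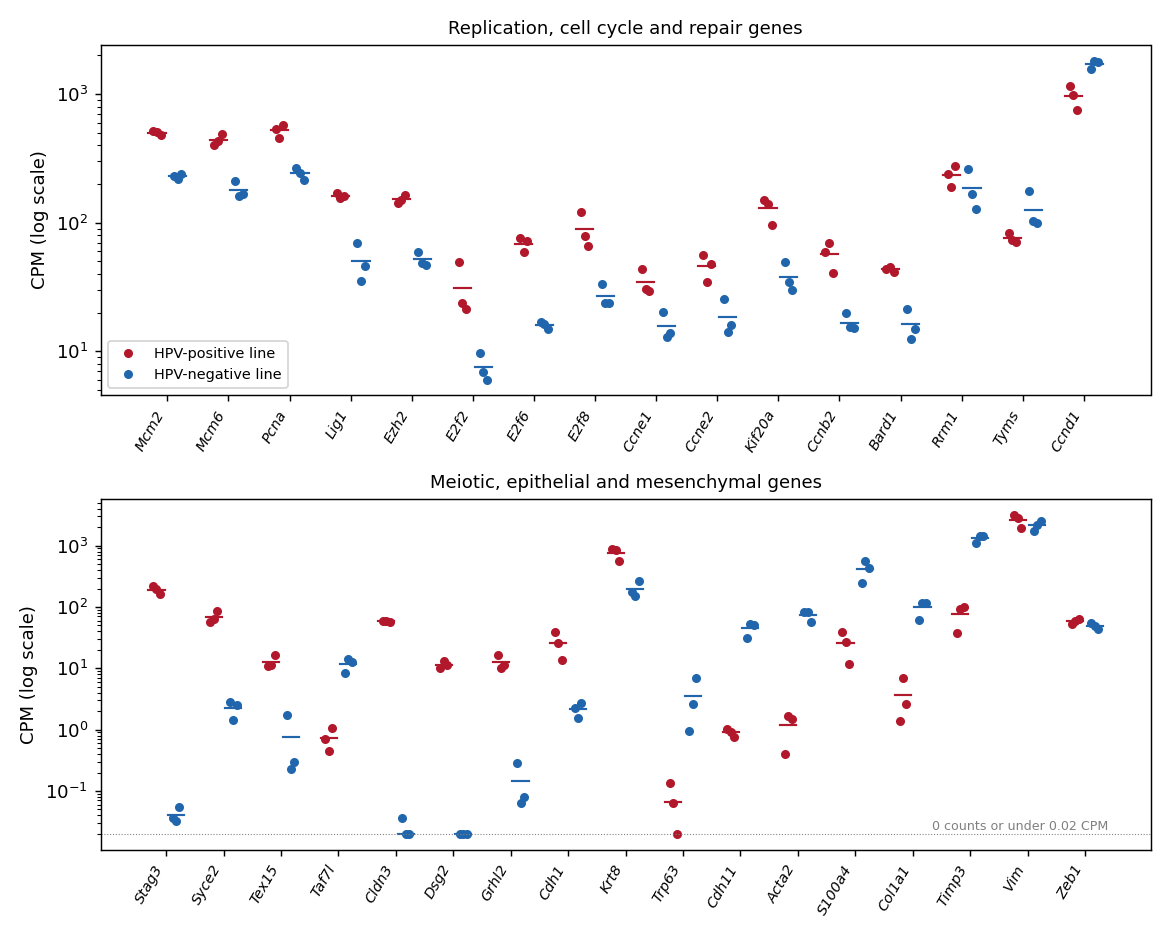
CPM on a log axis of replication, cell cycle and repair genes (top) and of meiotic, epithelial and mesenchymal genes (bottom), 1 point per library and a bar at the mean, with HPV-positive cells in red left of HPV-negative cells in blue. Points on the dotted line had 0 counts or under 0.02 CPM. The lines are apart for Mcm2, Ezh2 and E2f6 and overlap for Rrm1, and Stag3 is at 160 to 218 CPM against under 0.06 CPM.

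Mitotic genes were also mostly higher. Of 24 of them, 22 were higher, none was lower and 2, Ccnb1 (log2 0.06 ± 0.20) and Cenpa (-0.40 ± 0.20), were not called, and the median log2 change was 1.10. Kif20a, a kinesin needed to finish cell division, stood at 149.6, 141 and 96.7 CPM in the HPV-positive libraries, against 49.3, 34.4 and 30.0 CPM in the HPV-negative libraries (log2 1.77 ± 0.20, adjusted p = 6.8e-05). Mki67, the proliferation marker, stood at 309.8, 286 and 207 CPM in the HPV-positive libraries, against 166, 64.8 and 66.3 CPM in the HPV-negative libraries (log2 1.44 ± 0.33, adjusted p = 0.0047). The highest HPV-negative value was that of library 1, and without it the log2 change of Mki67 was 2.02. The level of the mitotic list was 0.68, 0.68 and 0.41 in HPV-positive libraries, against -0.08, -0.78 and -0.90 in HPV-negative libraries. Without HPV-negative library 1, 22 mitotic genes were higher. The growth state of the cultures at harvest is not given in the labels, and its part in these results was not tested.

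Among 28 genes of the Rb family, the E2F factors and the regulators of the G1 phase, 17 were higher, 3 were lower and 8 were not called (median log2 0.63). E2f6, a repressor of the E2F family that is known in mice to keep germline genes silent in body cells, stood at 75.6, 59.2 and 71.4 CPM in the HPV-positive libraries, against 17, 16.4 and 14.8 CPM in the HPV-negative libraries (log2 2.10 ± 0.12, adjusted p = 6.1e-07). Each HPV-positive library held more than 3 times the E2f6 level of each HPV-negative one. The other E2F genes that rose included the activator E2f2 (log2 2.06 ± 0.32) and the repressor E2f8 (1.73 ± 0.22), while the activator E2f1 rose by 0.62 ± 0.11. E2f3 (0.10 ± 0.12) and E2f4 (0.14 ± 0.09) were not called.

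The cyclins moved in both directions. Ccne1 and Ccne2, the E cyclins of entry into S phase, were higher by log2 changes of 1.14 ± 0.20 and 1.31 ± 0.24. Ccnd1, the D cyclin that starts the inactivation of Rb, stood at 1160.0, 977 and 750.4 CPM in the HPV-positive libraries, against 1575, 1821 and 1786 CPM in the HPV-negative libraries (log2 -0.84 ± 0.15, adjusted p = 9.7e-04), and its relative Ccnd2 was lower too (-0.65 ± 0.12). The inhibitor of cyclin D kinases Cdkn2b, next to the p16 locus, was higher (2.19 ± 0.29), as was Cdkn1c, which encodes p57, at 0.669, 2.14 and 2.60 CPM in the HPV-positive libraries, against 0.0364, 0 and 0.0808 CPM in the HPV-negative libraries (log2 5.33 ± 0.79, adjusted p = 3.7e-04, or 6.43 without HPV-negative library 3). Of the pocket proteins, Rbl1 was higher (1.16 ± 0.14), and Rb1 (-0.28 ± 0.11, adjusted p = 0.053) and Rbl2 (-0.36 ± 0.14, adjusted p = 0.062) were not called. Rb1 was called lower without HPV-positive library 3 (log2 -0.35), with DESeq2 (adjusted p = 0.0296) and with the minimum of 1 CPM in 3 libraries (adjusted p = 0.0498), and Rbl2 without HPV-negative library 1 (-0.51).

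DNA repair genes were mostly higher. Of 35, 25 were higher, 2 were lower and 8 were not called (median log2 0.81), and without HPV-negative library 1 these counts were 25 higher and 2 lower. H2afx, the histone variant phosphorylated at DNA breaks (1.52 ± 0.30), and Bard1, the partner of Brca1 (1.42 ± 0.18), had the largest rises. The lower genes were Xrcc6, which encodes Ku70 (-0.39 ± 0.10), and Apobec3. Apobec3, a cytidine deaminase that restricts retroviruses in mice, stood at 63.9, 47.5 and 43.9 CPM in the HPV-positive libraries, against 301, 264 and 318 CPM in the HPV-negative libraries (log2 -2.51 ± 0.15, adjusted p = 8.6e-07), with every HPV-positive library far below every HPV-negative one.

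Targets of p53 were mostly lower in HPV-positive cells. Of 29 listed targets, 22 were lower, 2 were higher and 5 were not called, with a median log2 change of -1.12. The death receptor gene Fas stood at 0.569, 1.10 and 1.14 CPM in the HPV-positive libraries, against 5.53, 7.18 and 6.25 CPM in the HPV-negative libraries (log2 -2.74 ± 0.30, adjusted p = 4.8e-05). Eda2r, a receptor of the TNF receptor family, stood at 38.0, 32.6 and 52.6 CPM in the HPV-positive libraries, against 126, 215 and 133 CPM in the HPV-negative libraries (log2 -1.94 ± 0.22). The lines did not overlap for either receptor. Phlda3, an inhibitor of the kinase Akt, was lower by a log2 of -1.70 ± 0.17, the polymerase Polk, which copies past DNA damage, by -1.38 ± 0.13, and the cyclin Ccng1 by -1.37 ± 0.19.

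The 2 targets that were higher were Ddb2, which recognises ultraviolet damage, at 15.6, 8.87 and 9.79 CPM in the HPV-positive libraries, against 5.67, 4.06 and 5.47 CPM in the HPV-negative libraries (log2 1.17 ± 0.24, adjusted p = 0.0025), and Tigar, a regulator of glycolysis (0.42 ± 0.10). The 5 targets that were not called were Sesn1, Xpc, Pmaip1, Rrm2b and Pidd1, with log2 changes between -0.49 and 0.13, and of these Pidd1 was called lower without HPV-positive library 1 (log2 -0.97). Mdm4, which like Mdm2 restrains p53, was lower, at 43.9, 45.6 and 43.6 CPM in the HPV-positive libraries, against 72.4, 83.7 and 57.7 CPM in the HPV-negative libraries (log2 -0.68 ± 0.13, adjusted p = 0.0014).

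Mdm2 is itself a target of p53 and by far the most abundant of the list in HPV-negative cells, at 177 TPM in HPV-positive cells, against 3146 TPM in HPV-negative cells (means of 3 libraries). Genes beside Mdm2 on chromosome 10 were therefore listed as well. Of 19 tested genes of that list, Mdm2 included, 8 were lower, 2 were higher and 9 were not called (median log2 -0.33). Over all of chromosome 10, 208 of 490 genes averaging at least 5 CPM were lower and 60 were higher (median log2 -0.29). The share of lower genes in the list was near that of the chromosome, though only the chromosome's genes were held to the minimum of 5 CPM. The neighbour Cpm, which encodes carboxypeptidase M, stood at 0.535, 0.378 and 0.0812 CPM in the HPV-positive libraries, against 5.89, 6.44 and 5.85 CPM in the HPV-negative libraries (log2 -4.21 ± 0.47, adjusted p = 5.8e-05). The log2 changes of Yeats4, a reader of acetylated histones, and of Mdm1 were -1.75 ± 0.12 and -1.35 ± 0.20. Rab3ip was higher (0.97 ± 0.12), and Nup107 (0.27 ± 0.11) and Cand1 (-0.11 ± 0.12) were not called. Nup107 was called higher without library 1 of the HPV-negative line (log2 0.37) or of the HPV-positive line (0.33) and with DESeq2 (adjusted p = 0.049), and Cand1 was called lower without HPV-negative library 3 (-0.23). DNA copy number was not measured.

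A few genes of meiosis, the division that makes eggs and sperm, were higher in HPV-positive cells, at levels that differed widely among them. Stag3, a subunit of the meiotic cohesin that holds sister chromatids together (GRCm38 chromosome 5, 138280240 to 138312393), stood at 218, 198 and 160.5 CPM in the HPV-positive libraries, against 0.0364, 0.0322 and 0.0539 CPM in the HPV-negative libraries. The log2 change was 12.04 ± 0.27 (adjusted p = 7.1e-09), and SCCVII held 0.086 ± 0.0488 CPM (SD, n = 3). Per length, Stag3 reached 165 TPM in HPV-positive cells, against 0.04 TPM in HPV-negative cells. Syce2, a protein of the synaptonemal complex that joins paired chromosomes, stood at 56.4, 62.9 and 86.4 CPM in the HPV-positive libraries, against 2.87, 1.45 and 2.48 CPM in the HPV-negative libraries (log2 4.92 ± 0.32, adjusted p = 1.6e-06), again without overlap. Tex15, which is needed for DNA break repair in meiosis, stood at 10.8, 11.2 and 16.2 CPM in the HPV-positive libraries, against 1.75, 0.225 and 0.296 CPM in the HPV-negative libraries (log2 4.12 ± 0.62, or 5.58 without HPV-negative library 1). Tex101, a surface protein of germ cells, stood at 0.301, 1.29 and 1.68 CPM in HPV-positive libraries and at 0 counts in all HPV-negative libraries, at least 34.7-fold higher against a floor of 3 counts over the line.

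Most of the meiotic list was not expressed at levels that could be tested. Of 30 listed genes, 21 had too few counts to be tested in any line, and of the 9 tested 4 were higher, 2 were lower and 3 were not called. A gene could pass the low-count filter through 1 line alone, as Stag3 did, so these counts lean towards genes held by 1 line. Of the other meiotic cohesin subunits in the list, Smc1b had 2 counts in all in HPV-positive cells and 0 in HPV-negative cells, Rec8 had 1 count in all in each line, and Rad21l had 0 in both. Taf7l, a transcription factor subunit of germ cells, was lower, at 0.702, 0.441 and 1.08 CPM in the HPV-positive libraries, against 8.25, 14.0 and 12.6 CPM in the HPV-negative libraries (log2 -3.95 ± 0.32, adjusted p = 6.9e-06). Mei4, which helps to form meiotic DNA breaks, was also lower (log2 -0.98 ± 0.27, adjusted p = 0.013), but not with all 23 libraries in the fit (adjusted p = 0.24). The promoter windows of 5 of the 27 list genes that matched RefSeq, Syce2 among them, held an E2F octamer (18.5%), counted by gene as for the replication list.

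Genes of epithelial junctions had the highest median change of the lists, cell type markers left aside. Of 27 tested, 20 were higher, 1 was lower and 6 were not called, and the median log2 change was 2.10. Cldn3, a claudin of tight junctions, stood at 59.4, 59.5 and 56.7 CPM in HPV-positive libraries, against a single count in the 3 HPV-negative libraries together. Dsg2, a desmosomal cadherin, stood at 10.3, 13.2 and 11.1 CPM in HPV-positive libraries and at 0 counts in HPV-negative libraries, at least 368-fold higher against the same floor. Both genes were at or near 0 in SCCVII as well. Cdh1, which encodes E-cadherin, the main adhesion protein of epithelia, stood at 39.5, 26.0 and 13.5 CPM in the HPV-positive libraries, against 2.25, 1.55 and 2.75 CPM in the HPV-negative libraries (log2 3.58 ± 0.38, adjusted p = 4.6e-05).

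HPV-positive cells also held more Epcam, an epithelial surface protein, at 11.3, 4.97 and 3.57 CPM in the HPV-positive libraries, against 0.109, 0.0322 and 0.0269 CPM in the HPV-negative libraries (log2 6.87 ± 0.70; 7.64 without HPV-negative library 1 and 6.24 without HPV-positive library 1), and more Dsp, which links desmosomes to keratins (3.08 ± 0.33). Within the HPV-positive line, library 1 was the highest for Cdh1 and Epcam, and the level of the junction list was 1.19, 0.80 and 0.35, against -0.81, -1.02 and -0.54 in HPV-negative libraries. Without HPV-positive library 1, 18 genes of the list were higher. The one lower junction gene was Perp, a desmosomal protein and p53 target (log2 -0.62 ± 0.12, adjusted p = 0.0034), which was not called with all 23 libraries in the fit (adjusted p = 0.62). The tight junction gene Ocln (-0.38 ± 0.50) and the P-cadherin gene Cdh3 (-0.30 ± 0.42) were among those not called.

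Keratins are the filament proteins of epithelia. Of 20 listed, 12 could be tested, and 6 of these were higher and 2 were lower. Krt8 and Krt18, the pair of simple epithelia, were higher. Krt8 stood at 887, 849 and 556 CPM in the HPV-positive libraries, against 177, 148 and 264 CPM in the HPV-negative libraries (log2 1.96 ± 0.23, adjusted p = 7.7e-05), and Krt18 had a log2 change of 2.11 ± 0.13. Krt6a, a keratin of activated squamous cells, stood at 42.9, 27.3 and 5.60 CPM in the HPV-positive libraries, against 0.364, 0.129 and 0.135 CPM in the HPV-negative libraries (log2 6.94 ± 0.87, adjusted p = 3.4e-04; 7.53 without HPV-negative library 1 and 6.32 without HPV-positive library 1). The lower keratins were Krt80 (-1.35 ± 0.29) and Krt17 (-1.64 ± 0.44), and the basal keratin Krt14 was not called (-0.49 ± 0.84, adjusted p = 0.66). Krt17 was not called without HPV-negative library 3 (log2 -1.24), and Krt14 was called lower without HPV-positive library 1 (-2.27). The count of lower keratins was 1 without HPV-negative library 3 and 4 without HPV-positive library 1.

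Epithelial transcription factors went both ways, with 10 of 21 tested higher and 7 lower. Grhl2, an activator of junction genes, stood at 16.3, 10.0 and 11.1 CPM in the HPV-positive libraries, against 0.291, 0.0644 and 0.0808 CPM in the HPV-negative libraries (log2 6.46 ± 0.49, adjusted p = 4.5e-06, or 7.34 without HPV-negative library 1). Foxa1, a pioneer factor of glandular epithelia, was higher by 4.15 ± 0.34 and Elf3 by 3.04 ± 0.36. The reverse held for Trp63, the master factor of squamous epithelium, at 0.134, 0.0629 and 0 CPM in the HPV-positive libraries, against 0.945, 2.61 and 7.03 CPM in the HPV-negative libraries (log2 -5.76 ± 0.95, adjusted p = 7.1e-04). HPV-negative libraries ranged widely for Trp63, yet each was above every HPV-positive one, and leaving out a library moved the log2 change to between -4.74 (without HPV-negative library 3) and -6.74 (without HPV-positive library 1), with -5.13 without HPV-positive library 3. Zfp750, which works downstream of p63 in human skin (-3.69 ± 0.52), and Ehf (-2.36 ± 0.55) were lower as well.

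Mesenchymal genes that were called were mostly lower in HPV-positive cells. Of 22 tested, 10 were lower, 1 was higher and 11 were not called (median log2 -0.84). Cdh11, a cadherin of mesenchymal cells, stood at 1.04, 0.913 and 0.757 CPM in the HPV-positive libraries, against 31.5, 53.2 and 50.03 CPM in the HPV-negative libraries (log2 -5.64 ± 0.30, adjusted p = 4.1e-07). Acta2, smooth muscle actin, stood at 0.401, 1.67 and 1.49 CPM in the HPV-positive libraries, against 84.2, 84.2 and 56.3 CPM in the HPV-negative libraries (log2 -5.95 ± 0.34). Every HPV-negative library lay more than 20 times above every HPV-positive one for both genes. S100a4 (-4.02 ± 0.42) and Pdgfrb, a receptor of fibroblasts and pericytes (-2.89 ± 0.31), followed the same direction.

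The intermediate filament gene Vim, the usual marker of mesenchymal cells, was not called, at 3172, 2839 and 1945 CPM in the HPV-positive libraries, against 1749, 2172 and 2496 CPM in the HPV-negative libraries (log2 0.31 ± 0.18, adjusted p = 0.19). Fn1 (0.26 ± 0.22), Zeb1 (0.23 ± 0.11) and Snai2 (-0.49 ± 0.23) were not called either. Leaving out 1 library brought a call to each of these 4, for Vim without HPV-positive library 3 (log2 0.49), Fn1 without HPV-positive library 1 (0.52), Zeb1 without HPV-negative library 1 (0.32) and Snai2 without HPV-negative library 3 (-0.70). The higher gene was Twist1, a factor of mesenchymal identity (log2 1.03 ± 0.15, adjusted p = 3.6e-04, adjusted p = 0.088 with all 23 libraries in the fit), and 2, 3 and 2 genes of the list were higher without HPV-negative library 1, HPV-positive library 1 and HPV-positive library 3. The 10 fibroblast markers summed to 4.62 to 14.1 TPM in HPV-positive cells and to 62.5 to 89.6 TPM in HPV-negative cells, and of the 7 that could be tested 6 were lower and none was higher in HPV-positive cells. Of these markers Thy1 and Fap had 0 counts in HPV-negative cells, whereas Pdgfrb, at 5.94 TPM in HPV-positive cells and 39.6 TPM in HPV-negative cells, and Col1a1, at 1.44 TPM in HPV-positive cells and 29.3 TPM in HPV-negative cells, made up most of the sum. The part of such cells in these results was not tested.

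Genes of the extracellular matrix changed in both directions. Of 20 collagen genes tested, 6 were higher and 9 were lower, with 1 higher when all 23 libraries were in the fit. Col1a1, the main chain of fibrillar collagen I, stood at 1.37, 6.86 and 2.60 CPM in the HPV-positive libraries, against 60.6, 118 and 118 CPM in the HPV-negative libraries (log2 -4.78 ± 0.48, adjusted p = 3.3e-05, or -5.61 without HPV-positive library 2), and Col8a1 (-4.66 ± 0.30) and Col11a1 (-3.85 ± 0.67) were lower too. Col4a2, a chain of basement membrane collagen IV, was higher, at 421, 310.0 and 218 CPM in the HPV-positive libraries, against 128, 99.4 and 102 CPM in the HPV-negative libraries (log2 1.53 ± 0.21, adjusted p = 2.1e-04). Among 24 matrix proteases and inhibitors 3 were higher and 8 lower, the lower count being 5 without HPV-negative library 3. Timp3, an inhibitor of metalloproteases that binds matrix, stood at 37.6, 92.8 and 101 CPM in the HPV-positive libraries, against 1106, 1438 and 1413 CPM in the HPV-negative libraries (log2 -4.09 ± 0.33, adjusted p = 6.4e-06). Plaur, the urokinase receptor, was higher (0.93 ± 0.20).

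**Figure D2:**
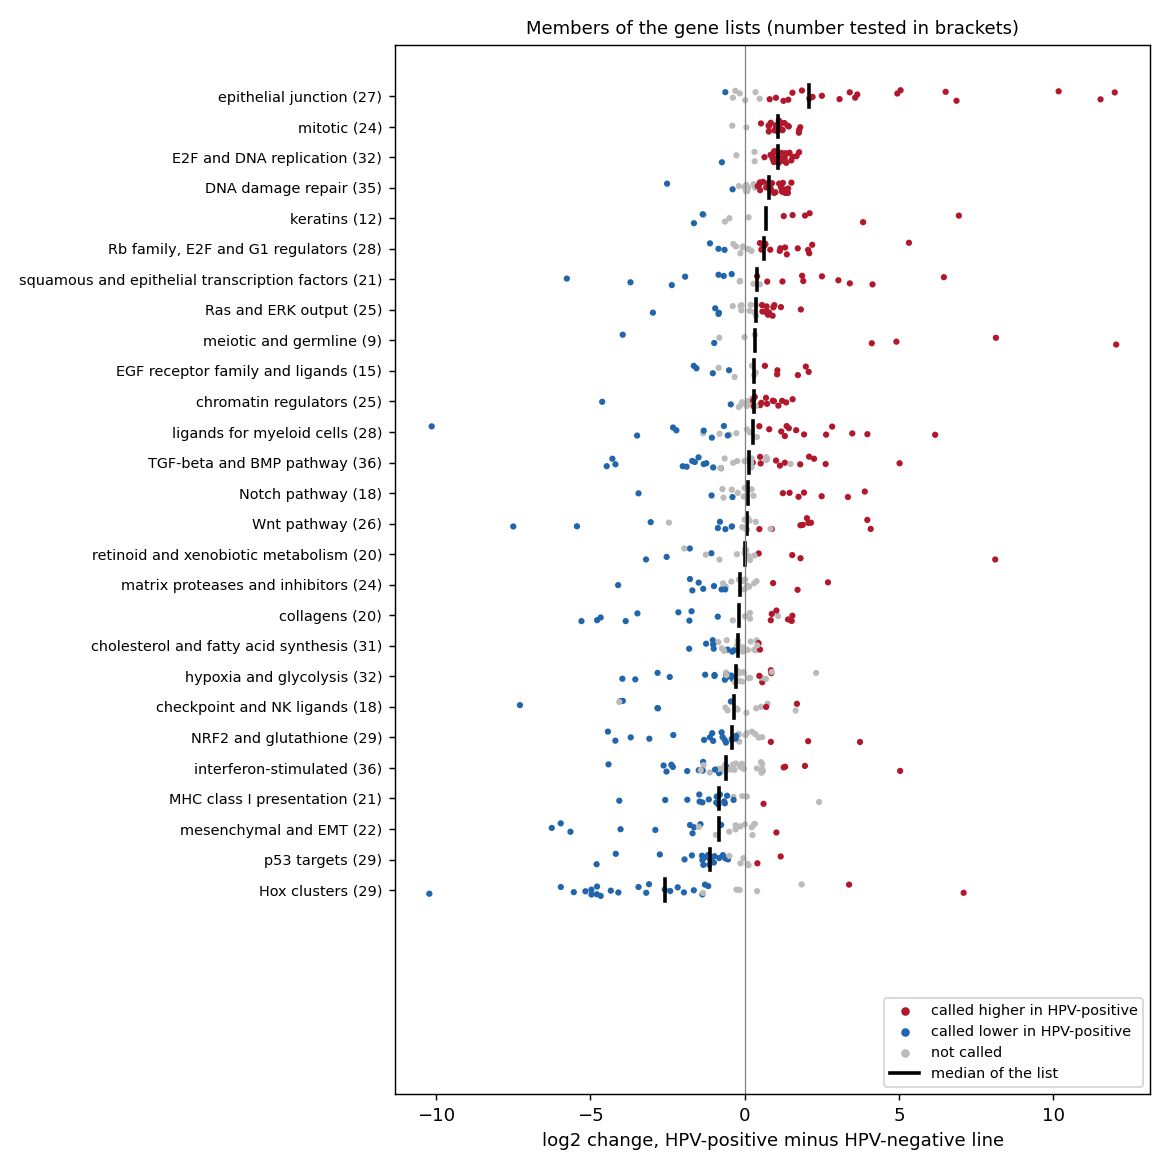
Log2 change (HPV-positive minus HPV-negative, x axis) of every tested member of 27 gene lists (y axis, number tested in brackets), red where called higher in HPV-positive cells, blue where called lower and grey where not called, with a black tick at the list's median. Medians run between 2.10 for epithelial junction genes and -2.59 for Hox genes, against -0.01 over all tested genes. Changes of genes with a line at 0 counts are fitted values that depend on the prior count.

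Hox genes, which encode the factors that set position along the body axis, showed the lowest median of the lists, cell type markers left aside. Of 39 genes in 4 clusters, 29 could be tested, and of these 22 were lower, 2 were higher and 5 were not called (median log2 -2.59). In the Hoxb cluster on chromosome 11 all 9 tested genes were lower. Hoxb9 stood at 1.81, 4.53 and 6.19 CPM in the HPV-positive libraries, against 141, 162 and 148 CPM in the HPV-negative libraries (log2 -5.15 ± 0.34, adjusted p = 1.9e-06). Hoxb7 stood at 1.87, 2.71 and 3.14 CPM in the HPV-positive libraries, against 42.2, 58.1 and 56.0 CPM in the HPV-negative libraries (log2 -4.33 ± 0.21). Hoxb13, at the far end of the cluster, had a single count over the HPV-positive libraries, against 12.9, 16 and 20.8 CPM in the HPV-negative libraries and 0 counts in SCCVII.

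The Hoxa cluster was mixed. Hoxa11 (-4.66 ± 0.37) and Hoxa10 (-2.59 ± 0.37) were lower, Hoxa9 (0.41 ± 0.32) was not called (it was called higher without HPV-positive library 1, log2 0.76), and Hoxa4 was higher, at 1.5, 2.23 and 2.60 CPM in the HPV-positive libraries, against 0.182, 0.225 and 0.189 CPM in the HPV-negative libraries (log2 3.39 ± 0.33, adjusted p = 2.8e-05). Hoxd9 was the other higher gene, at 0.301, 0.598 and 0.676 CPM in HPV-positive libraries and 0 counts in HPV-negative libraries, at least 16.7-fold higher. Its neighbour Hoxd8 was not called (-0.26 ± 0.47).

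**Figure D3:**
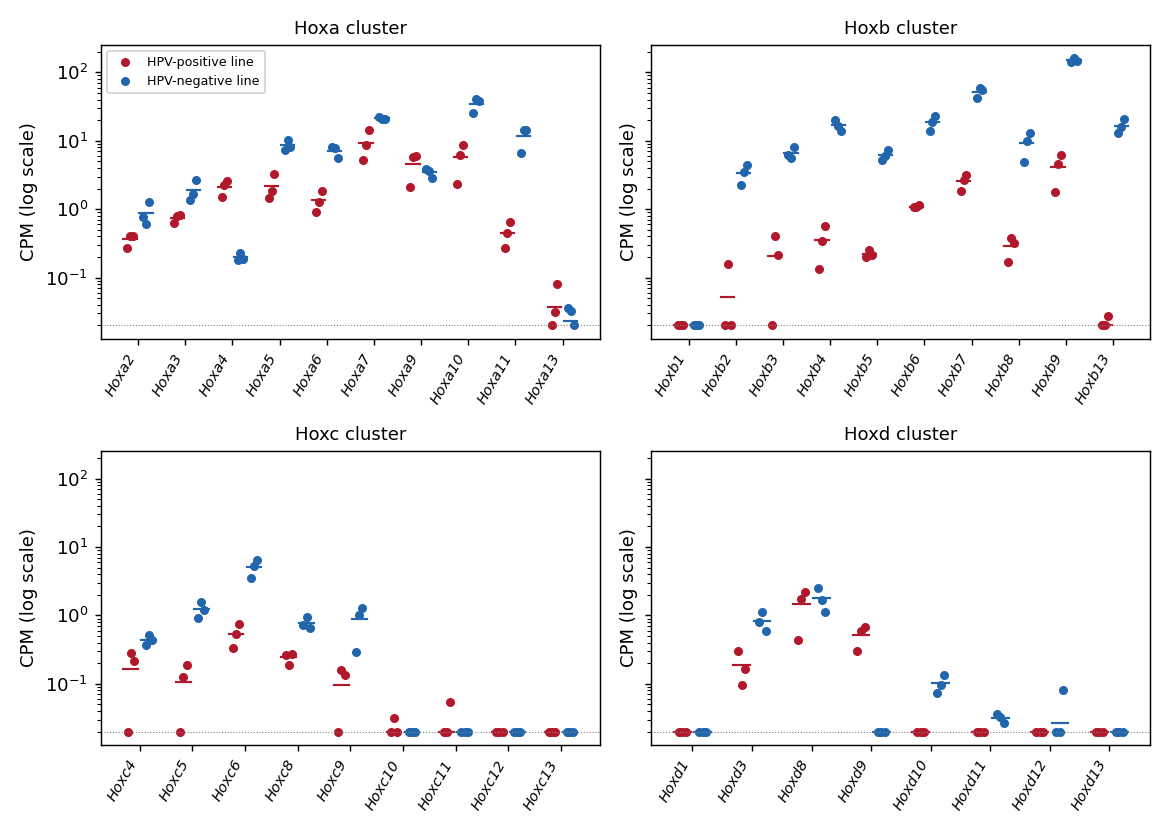
CPM on a log axis of Hox genes of the 4 clusters in the order of their numbers, 1 point per library and a bar at the mean, HPV-positive cells in red left of HPV-negative cells in blue, with points on the dotted line at 0 counts or under 0.02 CPM. All tested Hoxb genes lie lower in HPV-positive cells, while Hoxa9 and Hoxd8 overlap.

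The genes that present peptides on MHC class I, the display that cytotoxic T cells read, were mostly lower in HPV-positive cells. Of 21 tested, 15 were lower, 1 was higher and 5 were not called (median log2 -0.82). Tap1 and Tap2 form the pump that carries peptides into the endoplasmic reticulum. Tap1 stood at 2.41, 3.21 and 3.22 CPM in the HPV-positive libraries, against 13.0, 16.5 and 23.0 CPM in the HPV-negative libraries (log2 -2.57 ± 0.22, adjusted p = 1.1e-05). Tap2 stood at 0.903, 1.35 and 2.22 CPM in the HPV-positive libraries, against 14.8, 25.7 and 35.2 CPM in the HPV-negative libraries (log2 -4.06 ± 0.35). The 2 pump genes did not overlap between the lines. The classical heavy chain H2-D1 stood at 73.9, 70.6 and 103 CPM in the HPV-positive libraries, against 221, 214 and 245 CPM in the HPV-negative libraries (log2 -1.46 ± 0.14, adjusted p = 2.6e-05), and the shared light chain B2m was lower by a log2 of -0.91 ± 0.23.

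The other classical heavy chain, H2-K1, was not called, at 45.4, 37.4 and 47.2 CPM in the HPV-positive libraries, against 52.2, 30.6 and 40.8 CPM in the HPV-negative libraries (log2 0.07 ± 0.17, adjusted p = 0.75). The gene called higher, H2-T23 (log2 0.62 ± 0.21, adjusted p = 0.035), overlapped between the lines. It was not called when library 1 or 2 of either line was left out, with log2 changes between 0.48 and 0.55. Nor was it called with the replicate block (adjusted p = 0.063), with the 6 MEER libraries alone in the fit (0.075) or with all 23 libraries (0.055). With the replicate block, the 6 MEER libraries alone or all 23 libraries, no gene of the list was higher. Without HPV-positive library 1, where H2-T23 was not called, another gene of the list was, with 1 higher in all.

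Interferon-stimulated genes did not move as a block. Of 36 tested, 5 were higher, 12 were lower and 19 were not called (median log2 -0.61). Trim30a, a restrainer of inflammatory signalling in mice, stood at 0.301, 1.73 and 1.3 CPM in the HPV-positive libraries, against 19.8, 21.9 and 29.7 CPM in the HPV-negative libraries (log2 -4.41 ± 0.43, adjusted p = 2.8e-05). Tmem173, which encodes STING, the relay of the DNA-sensing pathway, stood at 11.5, 6.86 and 6.74 CPM in the HPV-positive libraries, against 36.8, 37.6 and 55.0 CPM in the HPV-negative libraries (log2 -2.37 ± 0.23, adjusted p = 2.7e-05). Its upstream sensor Cgas went the other way, at 33.0, 29.1 and 33.9 CPM in the HPV-positive libraries, against 18.8, 11.8 and 8.08 CPM in the HPV-negative libraries (log2 1.32 ± 0.25, adjusted p = 0.0016). Irgm1, a GTPase of defence inside cells (-2.32 ± 0.31), and Oas1a, a sensor of double-stranded RNA (-2.62 ± 0.57), were lower.

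Within the HPV-positive line the level of this list was -1.02, 0.16 and -0.07, against 0.35, -0.04 and 0.54 in HPV-negative libraries. Irf7, the factor that amplifies the interferon response, stood at 1.47, 9.72 and 7.84 CPM in the HPV-positive libraries, against 3.09, 3.03 and 6.65 CPM in the HPV-negative libraries and was not called (log2 0.57 ± 0.55). HPV-positive library 1 was the low one in both, and without it Irf7 was called higher (log2 1.04). Without that library 7 genes of the list were higher and 14 were lower.

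**Figure D4:**
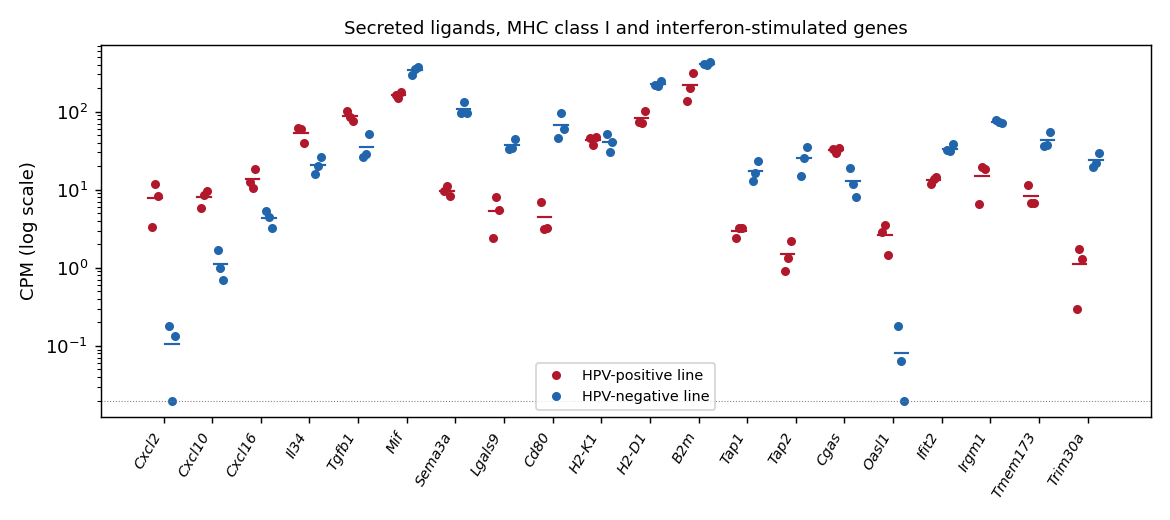
CPM on a log axis of secreted ligands, MHC class I genes and interferon-stimulated genes, 1 point per library and a bar at the mean, HPV-positive cells in red left of HPV-negative cells in blue, with points on the dotted line at 0 counts or under 0.02 CPM. H2-K1 overlaps between the lines, and Tap1, Tap2, Tmem173 and Sema3a are lower in HPV-positive cells.

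The series studies macrophages of these tumours, so ligands that tumour cells could send to myeloid cells were listed. Of 28 tested, 13 were higher, 8 were lower and 7 were not called (median log2 0.29). Neutrophil attractants were among the rises. Cxcl2 stood at 3.31, 11.9 and 8.33 CPM in the HPV-positive libraries, against 0.182, 0 and 0.135 CPM in the HPV-negative libraries (log2 6.18 ± 0.70, adjusted p = 6.4e-05), and Cxcl5 (2.64 ± 0.42) and Il11, a cytokine of the interleukin-6 family (3.98 ± 0.85, or 3.29 without HPV-positive library 3), were higher. Cxcl16, which attracts T and NKT cells, stood at 12.7, 10.5 and 18.2 CPM in the HPV-positive libraries, against 5.42, 4.41 and 3.21 CPM in the HPV-negative libraries (log2 1.67 ± 0.26, adjusted p = 5.0e-04). Il34, the second ligand of the Csf1 receptor, stood at 61.7, 60.04 and 39.7 CPM in the HPV-positive libraries, against 16, 20.0 and 26.6 CPM in the HPV-negative libraries (log2 1.36 ± 0.21, adjusted p = 4.5e-04), while Csf1 itself was lower (-2.21 ± 0.23). Tgfb1, the suppressive cytokine, was higher (1.31 ± 0.23).

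The falls in this list included Sema3a, a guidance factor that also attracts macrophages, at 9.63, 11.2 and 8.39 CPM in the HPV-positive libraries, against 96.6, 133 and 96.6 CPM in the HPV-negative libraries (log2 -3.48 ± 0.16, adjusted p = 1.8e-07), Ptges, which makes prostaglandin E2 (-2.31 ± 0.31), and Mif, the macrophage migration inhibitory factor (-1.06 ± 0.11). The monocyte attractant Ccl2 (-0.26 ± 0.47) and the neutrophil attractant Cxcl1 (0.18 ± 0.27) were not called, and Csf2 had too few counts to be tested. Of 18 ligands of checkpoint and NK cell receptors 2 were higher and 6 were lower, with 4 higher without HPV-positive library 1. Cd80, a ligand of CD28 and CTLA-4, stood at 6.92, 3.15 and 3.19 CPM in the HPV-positive libraries, against 46.4, 95.6 and 60.8 CPM in the HPV-negative libraries (log2 -3.94 ± 0.35, adjusted p = 1.5e-05). Lgals9, which encodes galectin-9, stood at 2.37, 8.06 and 5.57 CPM in the HPV-positive libraries, against 33.3, 34.1 and 44.3 CPM in the HPV-negative libraries (log2 -2.80 ± 0.34). For the NK cell receptor NKG2D, the ligand Ulbp1 was higher (1.70 ± 0.27) and the ligand Raet1d was lower (-4.02 ± 0.46). Cd47, the signal that restrains phagocytosis, was not called (0.06 ± 0.12).

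Genes of the Notch pathway, in which a ligand on a cell activates a receptor on its neighbour, changed in both directions. Of 18 tested genes of the pathway 7 were higher and 3 were lower. The ligand Jag1 stood at 187, 296 and 234 CPM in the HPV-positive libraries, against 17, 16.5 and 14.8 CPM in the HPV-negative libraries (log2 3.90 ± 0.17, adjusted p = 1.2e-07), and the ligands Dll1 (2.5 ± 0.35) and Jag2 (1.75 ± 0.18) followed. The target Hes1 (1.24 ± 0.17) and the target and feedback inhibitor Nrarp (1.93 ± 0.40) were higher, while the target Hey2 (-3.43 ± 0.66) and Rbpj, the DNA-binding partner of the pathway (-1.07 ± 0.12), were lower. The receptors Notch1 (-0.68 ± 0.26), Notch2 (0.23 ± 0.15) and Notch3 (-0.72 ± 0.33) were not called. Notch1 was called lower without library 1 of the HPV-negative line (log2 -0.87) or of the HPV-positive line (-0.97), and also with DESeq2 (adjusted p = 0.031) and with no low-count filter (adjusted p = 0.035), and Notch3 without HPV-positive library 2 (-1.02).

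The MEER model is known for an activated Ras, so the Ras genes were examined. Hras stood at 56.6, 55.8 and 50.6 CPM in the HPV-positive libraries, against 42.9, 51.0 and 50.1 CPM in the HPV-negative libraries and was not called (log2 0.18 ± 0.10), though a transgene and the mouse gene may not be separable in these counts. Nras had a log2 change of 0.39 ± 0.14, adjusted p = 0.042, with lines that overlap, and was not called without HPV-negative library 1 or 2 or without HPV-positive library 2 or 3 (log2 0.30 to 0.43). Of 25 genes known as output of Ras and ERK, 12 were higher and 4 were lower (median log2 0.37). The phosphatases Dusp5 (1.18 ± 0.18) and Dusp4 (0.93 ± 0.15), which switch off ERK, were higher, Dusp6 was not called (-0.38 ± 0.20), and the feedback inhibitors Spry1 (-2.97 ± 0.24) and Spry2 (-0.95 ± 0.10) were lower. Myc was not called (0.37 ± 0.17). Without HPV-negative library 1, Dusp6 was called lower (log2 -0.59) and Myc higher (0.49), and Myc was called without HPV-positive library 1 as well (0.48).

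Genes of the EGF receptor family changed in both directions. Among 15 tested genes of the family 6 were higher and 4 were lower, the lower count being 2 without HPV-positive library 2. Tgfa stood at 87.7, 63.7 and 61.8 CPM in the HPV-positive libraries, against 17.7, 15.6 and 20.4 CPM in the HPV-negative libraries (log2 1.99 ± 0.18, adjusted p = 1.8e-05). Hbegf was higher by 0.66 ± 0.18, and Errfi1, an inhibitor of the receptor, by 1.06 ± 0.16. Egf was lower (-1.64 ± 0.33), and Egfr itself stood at 1.10, 6.92 and 9.31 CPM in the HPV-positive libraries, against 17.4, 19.9 and 14.2 CPM in the HPV-negative libraries (log2 -1.56 ± 0.50, adjusted p = 0.027). Egfr was not called without HPV-negative library 1 or 2 or HPV-positive library 2 (log2 -1.44 to -1.70), nor with the 6 MEER libraries alone in the fit (adjusted p = 0.059).

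The BMP and Wnt pathways held changes of both signs, with 11 higher and 12 lower of 36 TGF-beta and BMP genes, and 9 higher and 7 lower of 26 Wnt genes. The shares over all tested genes were 23.2% higher and 23.9% lower, and the medians of the 2 lists were near 0, at log2 0.14 and 0.09. The ligand Bmp6 stood at 1.91, 3.52 and 3.08 CPM in the HPV-positive libraries, against 0.0727, 0.0966 and 0.0808 CPM in the HPV-negative libraries (log2 5.02 ± 0.43, adjusted p = 1.1e-05). Id2 (2.25 ± 0.49) and Id3 (2.09 ± 0.30), targets of BMP signals, were higher. Grem1, a secreted inhibitor of BMPs, was lower, at 13.0, 41.3 and 26.0 CPM in the HPV-positive libraries, against 658, 629 and 487 CPM in the HPV-negative libraries (log2 -4.46 ± 0.35, adjusted p = 6.3e-06), and so was Fst, which blocks activins (-4.28 ± 0.36). In the Wnt list Wnt7b (2.02 ± 0.27) and Notum, an enzyme that inactivates Wnt proteins (3.98 ± 0.36), were higher, and Wnt5a (-3.04 ± 0.25) and the receptor Fzd7 (-0.86 ± 0.18) were lower. Axin2, the usual readout of canonical Wnt signals, was not called (0.08 ± 0.37).

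Among 32 genes of hypoxia and glycolysis, 13 were lower and 4 were higher (median log2 -0.27). The lower count was 8 without HPV-positive library 2 and 16 without HPV-positive library 1. Epas1, which encodes the hypoxia factor HIF-2alpha, stood at 0.702, 0.126 and 0.298 CPM in the HPV-positive libraries, against 5.67, 3.96 and 7.79 CPM in the HPV-negative libraries (log2 -3.96 ± 0.53, adjusted p = 2.1e-04, or -4.72 without HPV-positive library 1). Its relative Hif1a was higher (0.57 ± 0.10). The carbonic anhydrases Car12 (-3.54 ± 0.40) and Car9 (-2.82 ± 0.54), which regulate pH outside the cell, were lower (-2.91 and -1.85 without HPV-negative library 3), and the glucose transporter Slc2a1 was higher (0.85 ± 0.18).

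Genes of antioxidant defence under the factor NRF2 were mostly lower, 17 of 29, with 3 higher (6 higher without HPV-positive library 3). Nqo1, a quinone reductase and standard readout of NRF2, stood at 0.234, 0 and 0 CPM in the HPV-positive libraries, against 1.45, 0.741 and 0.754 CPM in the HPV-negative libraries (log2 -3.69 ± 0.69, adjusted p = 0.0015). Its HPV-positive libraries ranged widely, and the log2 change was -7.97 without HPV-positive library 1 and -3.04 without HPV-positive library 3. Gstm1, a glutathione transferase of the mu class, was lower (-3.08 ± 0.43), and Gsta4, of the alpha class, was higher (2.06 ± 0.23). These families hold near-identical copies, so the split of reads among them is uncertain. Nfe2l2, which encodes NRF2, was lower by -0.74 ± 0.09.

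Of 31 genes of cholesterol and fatty acid synthesis 2 were higher and 8 were lower, the latter near the share of all tested genes (23.9%). This count depended on HPV-positive library 1, which held the list at the highest level (0.32, -0.38 and -0.39 in HPV-positive libraries, against 0.15, 0.01 and 0.33 in HPV-negative libraries). Without it 17 genes were lower, 4 were lower without HPV-positive library 2 and 5 without HPV-negative library 3. Elovl6, an enzyme that lengthens fatty acids, had the largest change (-1.79 ± 0.23).

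Of 25 chromatin regulators 14 were higher and 2 were lower. Ezh2, Uhrf1 and Dnmt1 also belong to the replication list and were counted there as well. Besides Ezh2, the higher ones included Uhrf1, which guides maintenance DNA methylation (1.35 ± 0.23), the DNA methyltransferases Dnmt3a (1.10 ± 0.11) and Dnmt1 (0.95 ± 0.19), and Mga, a partner of E2F6 in a repressor complex, at 296, 375 and 416 CPM in the HPV-positive libraries, against 159, 178 and 129.5 CPM in the HPV-negative libraries (log2 1.22 ± 0.15, adjusted p = 1.0e-04). The Polycomb partners of Ezh2, Eed (-0.08 ± 0.11) and Suz12 (0.23 ± 0.12), were not called (Suz12 was called higher without HPV-negative library 1, log2 0.33). Tet1, an enzyme that starts the removal of DNA methylation, had 3 counts in all in HPV-positive libraries, against 1.13, 0.741 and 0.674 CPM in HPV-negative libraries.

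In retinoid and xenobiotic metabolism, 4 of 20 tested genes were higher and 4 lower, near the shares of all tested genes (23.2% higher and 23.9% lower). Crabp1, which binds retinoic acid in the cytoplasm, stood at 10.2, 24.6 and 20.7 CPM in the HPV-positive libraries, against 0.0727, 0.0644 and 0.0539 CPM in the HPV-negative libraries (log2 8.12 ± 0.47, adjusted p = 8.4e-07). Aldh1a1, which makes retinoic acid, was lower (-3.19 ± 0.50).

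The largest differences were genes held by only one line. Thbd, which encodes thrombomodulin, an anticoagulant receptor of endothelium and of squamous epithelium, stood at 147, 361 and 685 CPM in HPV-positive libraries, against 3 counts in all in HPV-negative libraries. Acan, the core protein of cartilage aggrecan, stood at 67.5, 27.3 and 10.8 CPM in HPV-positive libraries, and Foxl2, a transcription factor of the ovary and pituitary, at 25.4, 18.6 and 19.3 CPM. Both had 0 counts in HPV-negative libraries, which makes Foxl2 at least 674-fold higher. Klrc1, an NK cell receptor gene, stood at 15.4, 54.2 and 43.4 CPM in HPV-positive libraries, and Ina, a neurofilament of neurons, at 23.4, 20.3 and 20.6 CPM, each against 0 counts in HPV-negative libraries.

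Endothelial markers summed to 14.5 to 22.7 TPM in HPV-positive cells and to 1.4 to 1.8 TPM in HPV-negative cells. Most of this sum was Egfl7, at 16.7 TPM in HPV-positive cells, and of the 4 that could be tested 3 were higher and 1 was lower in HPV-positive cells. Emcn and Erg had 0 counts in both lines, and Tie1 had 0 counts in HPV-positive cells. Leucocyte markers, given above, bear likewise on Klrc1, and the part of other cells in these levels was not tested.

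In the other direction Pon1, a paraoxonase made mainly by liver, had 0 counts in HPV-positive libraries, against 16.6, 18.5 and 12.3 CPM in HPV-negative libraries, at least 520.0-fold lower in HPV-positive cells. Ptprm, a phosphatase of cell contacts, likewise had 0 counts, against 12.7, 11.2 and 11.4 CPM in HPV-negative libraries, at least 387-fold lower. Thbs2, the matrix protein thrombospondin 2, stood at 0.268, 0.944 and 0.595 CPM in the HPV-positive libraries, against 401, 607 and 645 CPM in the HPV-negative libraries (log2 -9.82 ± 0.34), and Emilin1, a protein of elastic fibres, at 0.134, 0.283 and 0.0541 CPM in the HPV-positive libraries, against 80.3, 102 and 128 CPM in the HPV-negative libraries (log2 -9.37 ± 0.32, or -10.10 without HPV-positive library 2). The transcription factor Emx2 had a single count in HPV-positive libraries, against 16.5, 19.1 and 12.3 CPM in HPV-negative libraries. For all of these the lines were apart in every library.

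Changes were not spread evenly over the genome. Over 10317 genes with a mean of at least 5 CPM, the median log2 change was 0.02, but on chromosome 12 it was 0.57, with 247 of 362 genes higher and 13 lower. Chromosome 14 had the reverse, a median of -0.46 with 21 of 344 genes higher and 188 lower, and chromosome 10, which carries Mdm2, had one of -0.29 with 60 higher and 208 lower of 490. When genes were cut in order into 257 blocks of about 40 genes, 237 had a median within 0.4 of 0, 10 lay above 0.4 and 10 below -0.4. All 9 blocks of chromosome 12 had medians between 0.37 and 0.68.

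The lowest block ran along chromosome 14 over 20836660 to 31011991 of GRCm38, beginning at Plau and ending at Glt8d1. Its median was -1.41 and 32 of its 38 genes were lower. Another low block, with a median of -0.91 and 32 of 42 genes lower, ran over 96388294 to 104203372 of chromosome 13. Against SCCVII, the 2 blocks had medians of -0.73 and 0.14 in HPV-positive cells, and chromosome 12 had one of 0.38. DNA copy number was not measured, and the cause of these regional shifts was not tested. Of the genes named above, E2f6, Dnmt3a, Foxa1, Jag2, Hif1a, Id2 and Twist1 lie on chromosome 12, where their log2 changes stand beside a chromosome median of 0.57. Rb1, Spry2, Wnt5a and Plau lie on chromosome 14, and Polk, Ccnb1 and Ocln lie in the low block of chromosome 13. Other named genes within a block whose median is below -0.4 are Hey2, Perp and Raet1d on chromosome 10, Acta2, Fas, Dusp5 and Emx2 on chromosome 19, Epas1 and Epcam on chromosome 17 and Emilin1 on chromosome 5.

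**Figure D5:**
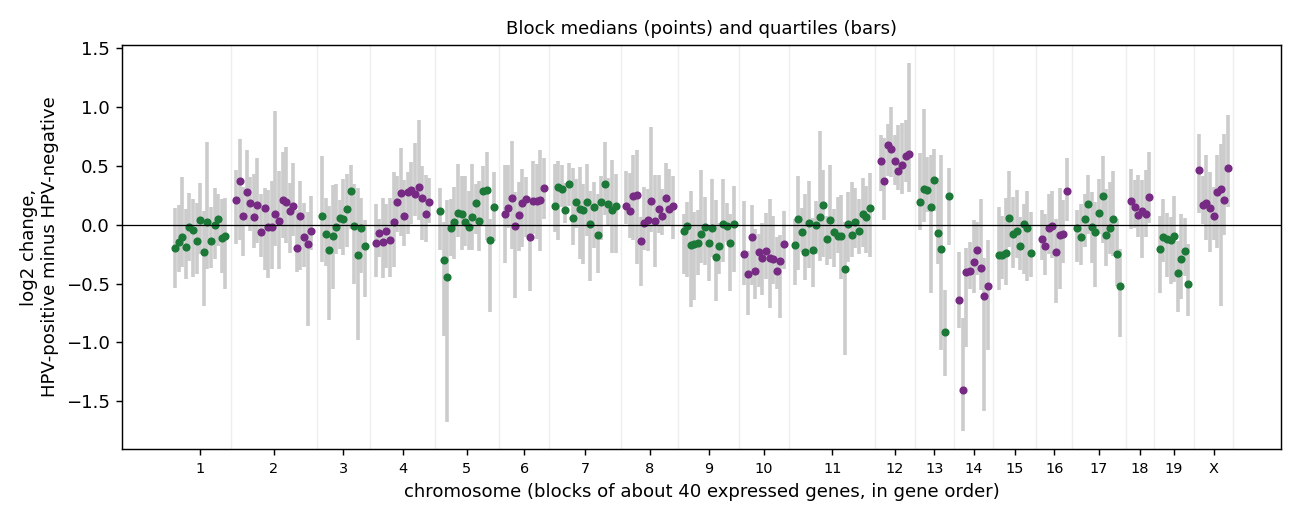
Median log2 change (HPV-positive minus HPV-negative, y axis) of blocks of about 40 neighbouring expressed genes along the chromosomes (x axis), with grey bars for the quartiles of each block and the 2 colours alternating by chromosome. Chromosome 12 lies above 0 in all 9 blocks, and the lowest block, at -1.41, is on chromosome 14.

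Against SCCVII, a comparison that uses the same HPV-positive libraries, 9217 of 14396 genes were called (64.0%), with 4905 higher in HPV-positive cells (34.1%) and 4312 lower (30.0%). Of the 32 replication genes 30 were higher than in SCCVII (median log2 1.68), Mcm2 among them at 97.8 ± 3.30 CPM in SCCVII (SD, n = 3). Of the 24 mitotic genes 8 were higher, a share near that of all tested genes, and 2 were lower (median log2 0.29). Of the p53 targets 4 were higher and 15 were lower (median log2 -0.44). Junction genes were higher in 23 cases and lower in 1, and Hox genes higher in 1 and lower in 23. E2f6 stood at 45.2 ± 1.32 CPM in SCCVII, a log2 change of 0.61 ± 0.11 in HPV-positive cells (adjusted p = 7.8e-04), and Apobec3 at 64.2 ± 3.30 CPM, a log2 change of -0.31 ± 0.14 (adjusted p = 0.074).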

How the data were processed

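RNA of cultured cells was made into libraries with the TruSeq stranded mRNA kit, per the labels' protocols. For each gene the authors deposited expected counts, which RSEM estimates and which may be fractional, and TPM, per the file headers. STAR 2.5.3a, RSEM 1.3.0, FastQC, MultiQC and mm10/GRCm38 appear in the submitters' processing notes, without role or order. The strand setting is not given in the sources used here, so values of near-identical, overlapping or antisense genes are uncertain. Of 36793 identifiers 95.8% matched a symbol in GENCODE M21, whose GRCm38 coordinates are given, 1-based.

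Counts were rounded, and the 9 line libraries shared a fit in edgeR 4.0.16 (R 4.3.3): quasi-likelihood test, TMM, filterByExpr (minimum count 10, minimum total 15), prior count 0.125 and Benjamini-Hochberg adjustment at 0.05. Changes beyond 1.5-fold were tested with glmTreat. Alternatives were DESeq2 1.42.0, other factors, filters and sets of libraries, a replicate block and each library left out. Log2 changes are HPV-positive minus HPV-negative. Their standard error is the size of the change divided by the square root of the test's F statistic. For a gene with few counts in a line, such as Stag3, this value can be smaller than the counting error. The fit was tested on simulated data. Where a line had 0 counts, a fold is a bound against 3 counts summed over that line, which covers counting error only, since the labels name no molecular identifiers. No pair of aliquots was counted as a repeat: the lowest chi-square per gene was 3.23. Blocks along chromosomes hold genes averaging at least 5 CPM.

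Genes were named by rule: the 12 largest rises and falls among called genes, where the lines did not overlap and every library of the higher line reached 10 CPM, up to 3 rises and 3 falls per list or chromosome region, and a fixed set. Other genes were named after their values were seen, some that the rule names are left out for length, and a few are not reported here. The comparison, its members and the gene lists were chosen with earlier results of these data known.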

Additional observations from a re-analysis of the deposited data

How the results depend on the processing

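The counts of called genes kept within 1.5 times of those reported under every alternative run. Between HPV-positive and HPV-negative cells, 7163 genes were called with DESeq2, 6777 with median-ratio factors, 6781 with no low-count filter, 6351 with a minimum of 1 CPM in 3 libraries, 5896 with all 23 libraries in the fit and 5283 with the 6 MEER libraries alone, against 6773 as reported. Leaving out a library of either line gave 5732 to 6863 calls. Replicate numbers do not pair the libraries of the lines: deviations of same-numbered HPV-positive and HPV-negative libraries from their line means had correlations of 0.0229, 0.0699 and -0.193, and with the replicate number as a block 6268 genes were called. Against SCCVII, alternatives gave 8170 to 9632 calls (9217 as reported), with 8872 under the replicate block. Of 858 counts of list members under alternatives, 53 moved by over 1.5 times, among them, with all 23 libraries in the fit, higher collagens (1), lower matrix proteases and inhibitors (4), higher interferon-stimulated genes (2) and higher and lower Wnt genes (5 and 4). DESeq2 called 5 lower Notch genes, and 4 epithelial transcription factors were lower with the 1 CPM minimum. Calls of 7 genes named in the text ended under at least 1 alternative: Egfr, H2-T23, Krt17, Mei4, Nras, Perp and Twist1. Genes reported as not called changed sign when a library was left out, with log2 changes of -0.25 to 0.55 for Axin2, -0.63 to 0.17 for Ccl2, -0.10 to 0.32 for Ccnb1, -0.016 to 0.18 for Cd47, -0.63 to 0.12 for Cdh3, -0.0075 to 0.17 for E2f3, -0.10 to 0.28 for H2-K1, -0.66 to 0.17 for Hoxd8, -2.27 to 0.041 for Krt14, -0.61 to 0.29 for Plau and -0.47 to 0.20 for Pmaip1. The cause of these moves was not tested. Medians of chromosomes 7, 9, 14 and 15 moved by more than the spread between libraries in 8 cases and kept their sign in every alternative. Depth limits genes with few counts, whose fitted changes depend on the prior count, and the 3 aliquots of a line do not cover variation between lines of the same kind.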

Other observations

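Among the 9 endothelial markers, 4 had enough counts to be tested, and 3 of them were higher and 1 was lower in HPV-positive cells. Of these, the following genes were chosen for mention after their values were seen. Egfl7, a secreted factor of vessel growth, stood at 7.49, 8.87 and 6.30 CPM in the HPV-positive libraries, against 0.291, 0.258 and 0.539 CPM in the HPV-negative libraries (edgeR log2 4.34 ± 0.35, adjusted p = 7.3e-06). Kdr, the main receptor of VEGF-A, stood at 2.11, 2.39 and 3.54 CPM in the HPV-positive libraries, against 0.909, 0.451 and 0.242 CPM in the HPV-negative libraries (log2 2.35 ± 0.46, adjusted p = 0.0019, or 2.95 without HPV-negative library 1). Tek, the receptor of angiopoietins, went the other way, at 0.1, 0.0629 and 0.0271 CPM in the HPV-positive libraries, against 0.545, 0.966 and 0.674 CPM in the HPV-negative libraries (log2 -3.49 ± 0.51, adjusted p = 3.5e-04). Per length Egfl7 averaged 16.7 TPM in HPV-positive cells and 0.85 TPM in HPV-negative cells, and Kdr averaged 0.87 TPM in HPV-positive cells and 0.157 TPM in HPV-negative cells.

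The growth factor Vegfa, a ligand of Kdr, was higher in HPV-positive cells, at 341, 287 and 266 CPM in the HPV-positive libraries, against 223, 213 and 205 CPM in the HPV-negative libraries (log2 0.48 ± 0.10, adjusted p = 0.0037). SCCVII held 487 ± 6.14 CPM (SD, n = 3). The noncoding RNA Xist, which silences an X chromosome in female cells, was near 0 in both MEER lines, at 0.201, 0.0315 and 0.189 CPM in the HPV-positive libraries, against 0.0727, 0.0966 and 0.0539 CPM in the HPV-negative libraries, and was not called (log2 0.91 ± 0.65). SCCVII held 1.59 ± 0.234 CPM of Xist (SD, n = 3).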
